A study of Mus musculus with 24 samples.

Results

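Glial progenitor cells derived from mouse embryonic stem cells were profiled before and after they were switched from growth medium to conditions that favour astrocytes. The 6 arrays described here were chosen by their labels: 3 hold undifferentiated and 3 hold differentiated cells of the genotype Dgcr8 flox/delta, out of 19 arrays in the series, which are listed as 24 sample entries. Both groups carry a conditional allele of Dgcr8, which encodes a subunit of the microRNA-processing microprocessor, opposite an allele that is already deleted, so neither group is wild type. Growth medium was N2 supplemented with EGF and FGF. For differentiation these factors were withdrawn, and B27 and fetal bovine serum at 1% were given, as the labels state. Tamoxifen is listed as a treatment for the knockout arrays only, and the labels do not say how long differentiation lasted or whether the 3 replicates of a group came from separate cultures. The p-values below thus measure the spread between these samples, which may be technical. The arrays hold RNA of whole cultures, and fewer cells of a type and less RNA per cell cannot be told apart in them.

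Astrocytes are the glia that clear glutamate and potassium from around synapses, store glycogen, secrete lipid carriers and cover blood vessels with water channel-rich endfeet. In development they arise from dividing progenitors that can also give rise to neurons and oligodendrocytes, and they switch on the filament protein Gfap under the influence of cytokines of the interleukin-6 family and of BMPs. EGF and FGF keep progenitors in the cell cycle through the RAS and ERK kinase cascade.

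Mean raw signal was 298.3 to 421.5 units per array and 11795 to 12701 of 25697 probes were detected, with detected probes at 2.33 to 3.15 times the background. Arrays of the same group correlated at r of 0.991 or more over probes and arrays of different groups at 0.915 or less. By these correlations no array stood apart from its group. Array quality weights, lower where an array scatters more, ran from 0.6 (undifferentiated replicate 1) to 1.63 (differentiated replicate 2). After background correction and quantile normalization, levels are given on a log2 scale whose lowest value is 4.15, and differences are log2 differences, differentiated minus undifferentiated, with their standard error (SE). A gene was tested when its probe was detected on at least 3 of the 6 arrays, which left 9404 genes. Of these 8667 carry a gene symbol, and the rest are probes without one, each counted as a gene. A gene detected in only 1 group could pass this filter, so the counts of lists describe the genes measured. With limma and Benjamini-Hochberg adjustment at 0.05, 2631 genes were higher in differentiated cells (28.0%) and 2562 were lower (27.2%), or 55.2% in all, and the groups did not overlap for 62.4% of genes. The median log2 difference over all genes tested was -0.01. The counts of every list below are read against these shares. Where a gene was not detected on any array of a group, its difference is given as a lower bound in place of a log2 difference.

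**Figure D1:**
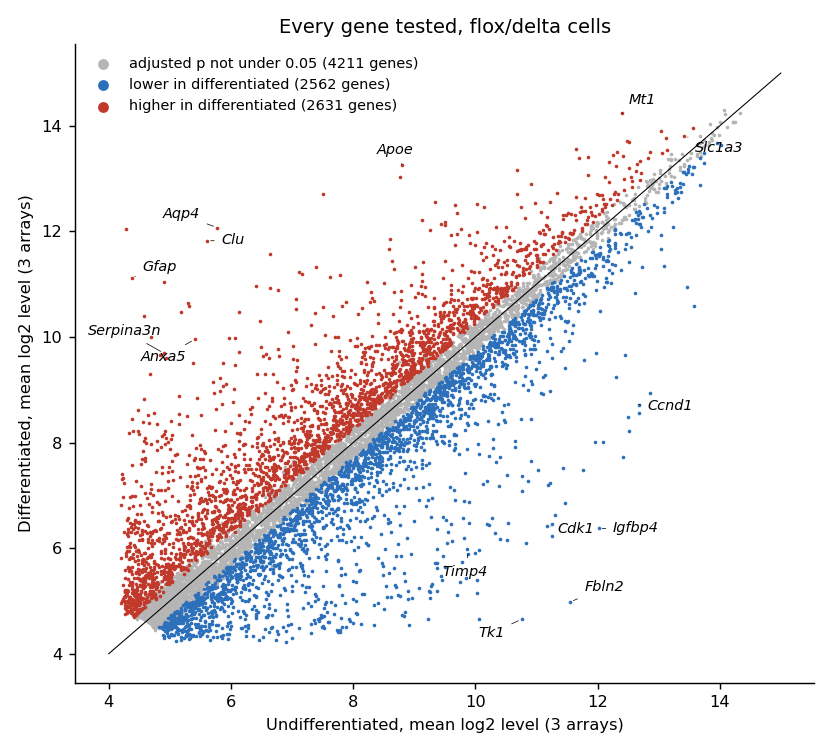
Mean log2 level of each of the 9404 genes tested in undifferentiated (horizontal) and differentiated (vertical) flox/delta cells, 3 arrays each. Red genes were higher (2631), blue genes lower (2562) and grey genes did not pass (4211). Labelled genes other than Tk1 are described in the text, Cdk1 by its promoter only.

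The 3 genes that mark astrocytes in this comparison were high on every differentiated array. Gfap had log2 levels of 4.45, 4.35 and 4.32 on the undifferentiated arrays and 11.13, 11.16 and 11.07 on the differentiated arrays, and it was not detected on any undifferentiated array. Aqp4, the water channel of the endfeet, had levels of 6.30, 5.42 and 5.59 on the undifferentiated arrays and 12.61, 11.77 and 11.84 on the differentiated arrays. Clu, the secreted chaperone clusterin, had levels of 5.92, 5.83 and 5.07 on the undifferentiated arrays and 11.75, 11.84 and 11.88 on the differentiated arrays. None of the 3 overlapped between groups. Gfap was at least 83.0-fold higher (limma adjusted p = 4.96e-10), Aqp4 rose by 6.30 ± 0.27 on the log2 scale (adjusted p = 1.24e-07) and Clu by 6.21 ± 0.20 (adjusted p = 2.64e-08).

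A wider list of 50 astrocyte genes had 37 measured members, of which 29 rose, 5 fell and 3 did not pass, with a median log2 difference of 1.11. Of these 36 were detected on every differentiated array and 30 on every undifferentiated array, so some could pass the filter only through the differentiated group. Large rises were seen for the angiotensinogen gene Agt (4.03 ± 0.19), for Entpd2 (at least 10.8-fold higher), an enzyme that degrades extracellular ATP, for Pla2g7 (3.46), which hydrolyses platelet-activating factor, and for the orphan receptor gene Gpr37l1 (2.98). Smaller rises were also without overlap. The glutamate transporter gene Slc1a3 had log2 levels of 13.43, 13.44 and 13.39 on the undifferentiated arrays and 13.82, 13.78 and 13.82 on the differentiated arrays, a difference of 0.39 ± 0.09 (adjusted p = 0.00414). Aldoc (0.65), the glycolytic aldolase of astrocytes, and Cst3 (1.17), the protease inhibitor cystatin C, rose by the log2 differences given. Aldh1l1 (1.51, and 0.15 to 1.43 on other probes), a folate enzyme used as a pan-astrocyte marker, and Slc1a2 (0.49), the other main glutamate transporter of astrocytes, also rose.

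Of the members that fell, Acsbg1 and Timp4 had the largest differences, and 3 members fell with median scaling in place of quantile normalization. Acsbg1, an acyl-CoA synthetase, had log2 levels of 10.04, 10.003 and 9.95 on the undifferentiated arrays and 8.36, 8.56 and 8.21 on the differentiated arrays, and Timp4, an inhibitor of metalloproteases, had levels of 9.85, 10.08 and 9.70 on the undifferentiated arrays and 5.93, 5.96 and 5.76 on the differentiated arrays. Neither overlapped between groups, with log2 differences of -1.62 ± 0.11 (adjusted p = 2.59e-06) and -3.99 ± 0.12 (adjusted p = 1.77e-08). The glycine cleavage gene Gldc (-0.68), the fatty acid binding protein gene Fabp7 (-0.43) and Cbs (-0.36) fell by less on the log2 scale. S100b (0.34), Fgfr3 (0.08) and Htra1 (-0.14), with log2 differences in parentheses, did not pass. The glutamine synthetase gene Glul was on the array, but its probe was not detected on enough arrays to be tested.

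**Figure D2:**
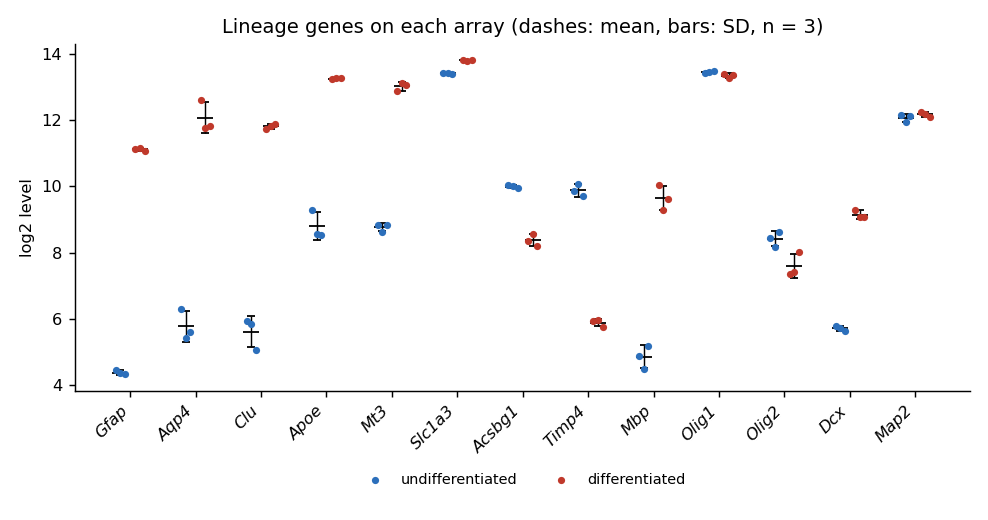
Log2 level of 13 lineage genes on each of the 3 undifferentiated (blue) and 3 differentiated (red) arrays, with the mean as a dash and the SD as a bar. Gfap, Aqp4, Clu, Apoe, Mt3, Mbp and Dcx were higher on every differentiated array, Acsbg1 and Timp4 lower, and Olig1 and Map2 did not pass the test.

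Genes of secreted astrocyte proteins rose in most cases. Of 18 measured 13 rose and 4 fell (2 without undifferentiated replicate 2 or 3), and the median log2 difference was 2.45. Apoe, the lipid carrier of brain lipoproteins, had log2 levels of 9.30, 8.57 and 8.53 on the undifferentiated arrays and 13.25, 13.27 and 13.27 on the differentiated arrays. Serpina3n, a serine protease inhibitor raised in reactive astrocytes, had levels of 4.95, 4.86 and 4.90 on the undifferentiated arrays and 9.59, 9.79 and 9.70 on the differentiated arrays. Both were higher on every differentiated array, by 4.46 ± 0.19 (adjusted p = 1.11e-07) and 4.79 ± 0.10 (adjusted p = 3.7e-09). The metalloprotease inhibitors Timp3 (3.08) and Timp2 (2.77) rose on the log2 scale while Timp4 (-3.99) fell, so the family went in both directions. Sparc (2.48), a matrix-binding glycoprotein, Thbs2 (2.44), a thrombospondin, and Megf10 (2.32), a receptor for engulfment, also rose, with log2 differences in parentheses. Serpinf1 (at least 1.98-fold lower) and Mfge8 (-0.81), a bridge between phagocytes and dying cells, fell, and so did the glypican gene Gpc5 (-0.43).

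Genes of potassium, water and glutamate handling rose for the most part. The list of gap junction, water and potassium genes had 7 rises and 1 fall among 10 measured, and 2 falls without undifferentiated replicate 3. It included the sodium pump subunit gene Atp1b2 (2.83 ± 0.12), the gap junction gene Gja1 (1.92 ± 0.09) and the dystrobrevin gene Dtna (1.51 ± 0.11), part of the complex that anchors the water channel at the endfeet, all as log2 differences. The sodium-potassium-chloride cotransporter gene Slc12a2 (-1.51) was the member that fell, and the potassium channel gene Kcnj16 (-0.11) did not pass. Of 12 genes of glutamate and GABA handling 7 rose and 4 fell, but 1 fell with median scaling. Glud1, the glutamate dehydrogenase that feeds glutamate into the citric acid cycle, had log2 levels of 10.57, 10.17 and 10.28 on the undifferentiated arrays and 11.94, 12.29 and 12.03 on the differentiated arrays. Abat, which breaks down GABA, had levels of 10.32, 9.72 and 9.70 on the undifferentiated arrays and 11.83, 11.81 and 11.69 on the differentiated arrays. Both rose without overlap, by 1.75 ± 0.14 and 1.86 ± 0.16 (0.75 to 2.11 on other probes) on the log2 scale, whereas both transaminase genes Got1 (-0.94) and Got2 (-0.34) fell. Slc1a1, a glutamate transporter best known from neurons, rose by 3.90 ± 0.12 (2.40 on another probe) and was among the 40 largest rises of all genes.

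Zinc and metal genes held some of the largest rises. Mt3, the brain metallothionein, had log2 levels of 8.83, 8.63 and 8.85 on the undifferentiated arrays and 12.89, 13.14 and 13.06 on the differentiated arrays, and Mt1 had levels of 12.50, 12.33 and 12.35 on the undifferentiated arrays and 14.20, 14.25 and 14.25 on the differentiated arrays. The groups did not overlap for either gene, with log2 differences of 4.26 ± 0.11 (adjusted p = 9.77e-09) and 1.84 ± 0.09 (adjusted p = 3.56e-07). Mt2 (3.07) rose as well, and so did the zinc importer gene Slc39a12 (4.93) and Slc30a10 (1.77), a metal exporter gene. Metallothionein genes are near-identical in part, so that their probes may share signal. On the iron side Tfrc (-1.24), the receptor that imports transferrin-bound iron, and Trf (-3.81), transferrin itself, fell, and Fth1 (0.38), the ferritin heavy chain that stores iron, rose by a small log2 difference. Of the 19 metal genes measured 9 rose and 3 fell.

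Antioxidant genes went both ways. Of 36 measured 13 rose, 7 fell and 16 did not pass, and 4 fell with median scaling, without undifferentiated replicate 3 or without differentiated replicate 1. The glutathione peroxidase genes Gpx8 (2.32), Gpx4 (1.64) and Gpx1 (1.24) rose on the log2 scale, and so did catalase, Cat (1.40), sulfiredoxin, Srxn1 (1.65), and the cystine importer gene Slc7a11 (2.83), which rose most on this list. Among those that fell were thioredoxin, Txn1 (-2.47 ± 0.13, and -1.23 to -0.96 on other probes), its reductase Txnrd1 (-0.46), the peroxiredoxin gene Prdx4 (-1.20) and Nqo1 (-0.99). Heat shock and chaperone genes had shares close to those over all genes, with 7 rises, 5 falls and 13 that did not pass in 25. Hspb8 (5.34), Cryab (3.52), which encodes the alpha-B crystallin that binds Gfap filaments, Hspa2 (2.09) and Hspb6 (0.83) rose by the log2 differences given. The falls were smaller and include the cytosolic chaperonin genes Cct8 (-0.45) and Cct5 (-0.43) and the mitochondrial chaperonin genes Hspd1 (-0.64) and Hspe1 (-0.53). The small heat shock protein gene Hspb1 (0.51), the chaperonin genes Cct2 (-0.46) and Cct3 (-0.19) and the constitutive chaperone gene Hspa8 (-0.02) did not pass.

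Annexins, S100 proteins and caveolar proteins, which bind membranes in a calcium-dependent way or shape them, rose in most cases. Of 23 measured 18 rose, 2 fell and 3 did not pass, and the median log2 difference was 1.73. Anxa5, which binds exposed phosphatidylserine, had log2 levels of 5.42, 5.53 and 5.27 on the undifferentiated arrays and 9.71, 9.95 and 10.20 on the differentiated arrays. Anxa2, its relative at the cell cortex, had levels of 8.36, 8.60 and 8.87 on the undifferentiated arrays and 11.75, 11.96 and 11.89 on the differentiated arrays. Neither gene overlapped between groups, and the log2 differences were 4.55 ± 0.14 (adjusted p = 1.75e-08) and 3.25 ± 0.14 (adjusted p = 1.08e-07). The scaffold gene Ahnak (5.30), a partner of annexin 2, and the S100 genes S100a11 (2.28), S100a16 (2.05) and S100a6 (1.73) rose too. So did caveolins Cav2 (2.54) and Cav1 (1.95) and the membrane protein genes Emp2 (3.46), Emp1 (2.18) and Emp3 (1.78), with log2 differences in parentheses. The galectins parted: Lgals3 (3.05) rose, while Lgals1 had levels of 12.39, 12.27 and 12.25 on the undifferentiated arrays and 9.02, 9.33 and 9.35 on the differentiated arrays and a log2 difference of -3.07 ± 0.11, without overlap. Anxa6 (-0.59) was the only annexin of the list that fell, and Anxa4 (0.49) rose.

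Actin-binding genes also rose, 14 of 25 measured, with a median log2 difference of 0.75. Ccn2 (3.10) and Ccn1 (at least 3.42-fold higher), matricellular genes that YAP and serum response factor are known to drive, and smooth muscle actin, Acta2 (at least 4.16-fold higher on this probe, and 0.53 to 0.62 on other probes), rose. The crosslinker gene Actn1 (2.04), the LIM-domain gene Fhl1 (2.63), Palld (1.496) and Vcl (0.93) rose with them. The 4 members that fell were the tropomyosin genes Tpm1 (-1.39) and Tpm3 (-0.97), the non-muscle myosin gene Myh9 (-0.78) and Csrp2 (-1.61), as log2 differences.

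Genes of glycogen and of fatty acid oxidation had more rises than falls, and those of glycolysis had more falls than rises. Of 11 glycogen genes 7 rose and none fell, with a median log2 difference of 0.62, and 1 fell in 7 of the 15 alternatives, which include leaving out undifferentiated replicate 1 or 3 or differentiated replicate 2. Pygb, the brain glycogen phosphorylase, had log2 levels of 9.10, 8.51 and 8.41 on the undifferentiated arrays and 10.76, 10.81 and 10.96 on the differentiated arrays. It rose by 2.17 ± 0.17 (adjusted p = 6.84e-06) without overlap. Phkg1 (3.40), the catalytic subunit of the kinase that activates phosphorylase, and Pygl (1.597, and 0.50 on another probe) rose too, and so did Ugp2 (0.89) and Ppp1r3c (0.72), which act in synthesis. Glycogen synthase, Gys1 (-0.20), did not pass. Among 29 genes of fatty acid oxidation 15 rose and 3 fell, and with median scaling 9 rose and 1 fell. Acsl6 (2.50), which activates long fatty acids, Bdh1 (1.71), a ketone body enzyme, and the medium-chain dehydrogenase gene Acadm (0.83) were higher, and the short-chain enzyme gene Acads (-0.59) was lower, in log2 differences. Of 26 genes of glycolysis, glucose and lactate transport and their hypoxia-linked regulation 9 rose and 13 fell, with a median log2 difference of -0.37. The falls include hexokinase 2, Hk2 (-1.62), and the pathway enzymes Tpi1 (-1.40), Ldha (-1.37), Pkm (-1.11) and Gapdh (-0.46), as well as the vessel growth factor gene Vegfa (-2.43). The phosphofructokinase gene Pfkp (at least 12.4-fold higher on this probe, and 1.79 on another probe) and the glucose transporter gene Slc2a3 (1.47) rose. Lipid transport and storage genes had 9 rises and 4 falls in 16. Lipoprotein lipase, Lpl (2.88 ± 0.12), the monoacylglycerol lipase Mgll (3.11 ± 0.19), Apoc1 (3.05), Pltp (2.47) and the lipid droplet gene Plin2 (1.16) rose, and the fatty acid carrier gene Fabp5 (-1.02) and the receptor gene Vldlr (-0.87) fell. Mfsd2a, which carries lysophospholipids with omega-3 fatty acids across membranes, was among the 40 largest rises, at 4.13 ± 0.13.

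Lysosome and autophagy genes rose by modest amounts. Of 53 lysosomal genes 29 rose and 5 fell, with a median log2 difference of 0.34, and 19 rose with median scaling. The cathepsin genes Ctsl (1.96 ± 0.11) and Ctsb (1.57 ± 0.10) led, followed by the lipid and sulfate hydrolases Smpd1 (1.18), Arsb (1.46, and -0.04 on another probe) and Arsa (1.06). Ctsb had log2 levels of 10.996, 11.05 and 10.87 on the undifferentiated arrays and 12.50, 12.67 and 12.46 on the differentiated arrays, so its groups did not overlap. The membrane protein genes Lamp1 (0.77) and Lamp2 (0.88) and the proton pump subunits Atp6v0d1 (0.88) and Atp6v1b2 (0.46) rose as well. The glycosidase genes Glb1 (-1.04) and Gusb (-0.71) and the peptidase gene Ctsc (-1.13) fell. In autophagy 15 of 26 genes rose and Bnip3l (-0.32) alone fell, a call lost with median scaling and without undifferentiated replicate 3. Those that rose include the autophagosome coat genes Map1lc3b (1.61), Map1lc3a (1.15) and Gabarapl1 (1.18), the cargo receptor gene Sqstm1 (1.35), the phosphoinositide effectors Wipi1 (1.77) and Wipi2 (1.08) and the kinase gene Ulk2 (1.09). The core conjugation genes Atg5 (-0.17), Atg3 (0.15) and Becn1 (0.05) did not pass, with the log2 differences given.

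**Figure D3:**
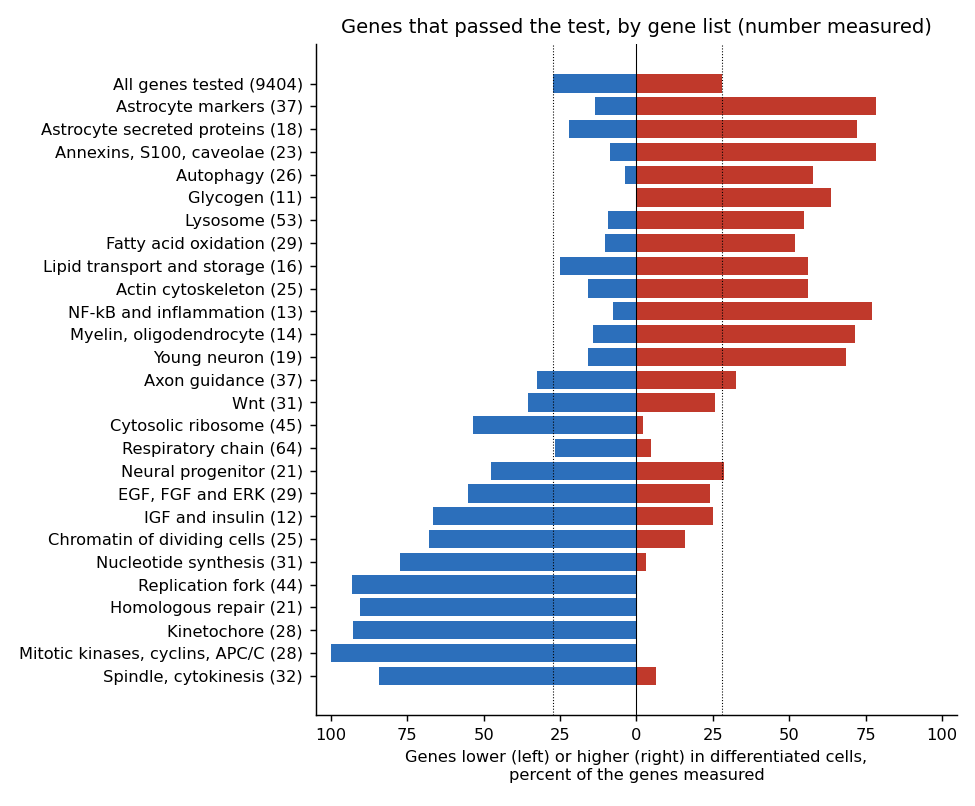
Share of the measured members of 26 gene lists that were lower (blue, left) or higher (red, right) in differentiated cells, in percent, with the number measured in parentheses and all genes tested as the top bar. Dotted lines mark the shares over all genes, 27.2% lower and 28.0% higher; the mitotic kinase list had 28 of 28 members lower.

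Genes that answer to EGF and FGF fell in many cases. Of 29 measured genes of growth factor receptors and ERK feedback 16 fell and 7 rose, with a median log2 difference of -0.35. Spry4, a feedback inhibitor of receptor tyrosine kinases that ERK induces, had log2 levels of 7.54, 8.24 and 8.37 on the undifferentiated arrays and 5.05, 5.09 and 4.85 on the differentiated arrays. Dusp6, the phosphatase that inactivates ERK, had levels of 10.78, 11.46 and 11.41 on the undifferentiated arrays and 7.14, 7.36 and 7.20 on the differentiated arrays. Neither overlapped, and the log2 differences were -3.06 ± 0.20 (adjusted p = 1.86e-06) and -3.98 ± 0.17 (-2.89 to -1.83 on other probes) (adjusted p = 1.31e-07). The factors Etv5 (-4.25), Etv4 (-3.64) and Etv1 (-1.18) and the phosphatases Dusp1 (-2.07), Dusp4 (at least 1.28-fold lower) and Dusp7 (-0.70) fell too, by the log2 differences given. Ligands and receptors went both ways. The EGF receptor gene Egfr (-1.43) and the ligand gene Fgf1 (-1.90) fell, while the EGF-family ligand gene Hbegf (2.00), the receptor gene Fgfr2 (1.23) and the receptor antagonists Lrig1 (0.95) and Lrig3 (0.84) rose. Phlda1 (-0.05), Il17rd (-0.07) and Ier3 (-0.26), which ERK also drives, did not pass.

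Genes of most insulin-like growth factor binding proteins fell. Igfbp2 had log2 levels of 11.93, 11.96 and 11.98 on the undifferentiated arrays and 7.78, 8.005 and 8.28 on the differentiated arrays and Igfbp3 had levels of 9.99, 10.28 and 10.28 on the undifferentiated arrays and 7.16, 7.20 and 7.48 on the differentiated arrays. Both were lower on all differentiated arrays, with log2 differences of -3.94 ± 0.13 and -2.91 ± 0.13, along with Igfbp4 (-5.64) and, less, Igfbp7 (-0.59). Igfbp5 and the related gene Igfbpl1 went the other way, Igfbp5 (2.02) as a log2 difference and Igfbpl1 (at least 3.08-fold higher) as a bound. The receptor genes Igf1r (-0.52) and Igf2r (-0.71) and the ligand gene Igf2 (-0.82) fell, and the adaptor gene Irs2 (2.03) rose, so that 8 of 12 members fell and 3 rose.

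Genes of the G1 phase fell in 13 of 17 cases and rose in 3. D-type cyclins couple growth factor signals to the kinases that inactivate the retinoblastoma protein, which in turn holds E2F factors in check. Ccnd1 had log2 levels of 12.26, 12.90 and 12.87 on the undifferentiated arrays and 8.57, 8.86 and 8.73 on the differentiated arrays. Ccnd2 had levels of 9.20, 9.76 and 9.83 on the undifferentiated arrays and 6.96, 6.21 and 6.22 on the differentiated arrays. Both fell without overlap, with log2 differences of -3.96 ± 0.17 and -3.13 ± 0.23, while Ccnd3 (0.70) rose. Ccne2 (-3.12) and Ccne1 (-1.62), the E cyclins, and the activator E2F genes E2f1 (-2.60), E2f2 (-1.66) and E2f3 (-1.24) fell. Rb1 itself had levels of 8.90, 8.77 and 8.66 on the undifferentiated arrays and 10.09, 10.22 and 9.96 on the differentiated arrays. It rose without overlap by 1.31 ± 0.11 (adjusted p = 1e-05), whereas its relative Rbl1 (-2.39) fell. Of 25 genes of kinase inhibitors and quiescence, 3 rose and 11 fell, and 6 rose with array quality weights or without undifferentiated replicate 1. Cdkn2b (1.97) and Foxo1 (1.32) rose, Cdkn1b (0.27) and Cdkn1c (-0.44) did not pass, and Cdkn2c (-2.04, and 0.08 on another probe) and the antiproliferative gene Btg1 (-1.51) fell.

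Genes of cell division itself fell together. Over 5 lists, covering the replication fork, mitotic kinases, the kinetochore, the spindle and chromosome condensation, 153 genes were measured, of which 139 fell, 2 rose and 12 did not pass. Of the 2 spindle genes that rose 1 did so with median scaling, and 1 condensation gene rose without undifferentiated replicate 3 or differentiated replicate 3. Of these genes 82 fell at least 4-fold and 21 at least 16-fold. In the differentiated cells 121 of the 153 were still detected on all 3 arrays and 16 on none. A gene detected in only 1 group could pass the filter on dim probes, so the counts describe the genes measured and not every gene listed.

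At the replication fork 41 of 44 fell and none rose, with a median log2 difference of -2.28. The helicase subunit gene Mcm5 had log2 levels of 11.31, 11.51 and 11.49 on the undifferentiated arrays and 7.48, 7.46 and 7.63 on the differentiated arrays. The groups did not overlap, with a difference of -3.91 ± 0.10 (adjusted p = 9.94e-09). Mcm10 (-4.05), the licensing factors Cdt1 (-3.40) and Cdc6 (-2.60, and -0.69 on another probe), the ligase gene Lig1 (-3.42, and -2.93 to -0.06 on other probes), the histone chaperone gene Chaf1b (-4.10) and the clamp-binding gene Pclaf (-4.88) fell as well, by the log2 differences in parentheses. The origin recognition genes were an exception: Orc2 (-0.14), Orc3 (0.11) and Orc4 (0.08) did not pass, and Orc5 (-0.55) and Orc6 (-0.96) fell by under 1 log2 unit. The kinetochore list had 26 falls in 28 and a median of -2.89. Cenpa, the histone that marks centromeres, had log2 levels of 12.47, 12.39 and 12.38 on the undifferentiated arrays and 7.82, 7.65 and 7.73 on the differentiated arrays. It fell by 4.68 ± 0.09 without overlap. The chromosomal passenger genes Cdca8 (-4.18), Birc5 (-3.73, and -4.99 to -4.58 on other probes) and Incenp (-3.49) and the cohesin protector gene Sgo1 (-4.19) fell too. So did Spc25 (-3.998) and Ndc80 (-3.66) of the Ndc80 complex, while Cenpb (-0.19) and Zw10 (-0.33) did not pass.

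Among mitotic kinases, cyclins and ubiquitin ligase subunits each of the 28 measured fell, with a median log2 difference of -2.04, or -1.92 with members below background set at their bound, and sizes that differed by role. Plk1, the polo kinase of mitotic entry, had log2 levels of 9.88, 9.87 and 9.81 on the undifferentiated arrays and 5.46, 5.16 and 5.67 on the differentiated arrays. It fell by 4.42 ± 0.13 without overlap. Aurka (-4.09), Bub1b (-3.87) and the transcription factor genes Foxm1 (-3.46) and Mybl2 (-2.76, and -1.56 to -0.75 on other probes) fell by several log2 units. Subunits of the anaphase-promoting complex, which also act outside mitosis, fell by less on the same scale: Cdc16 (-0.47), Cdc27 (-0.55) and Anapc5 (-0.52). The spindle list, with 27 falls in 32, was split in a like way. Motor genes such as Kif2c (-4.39), Kif22 (-4.07), Kif23 (-4.06) and Kif11 (-3.68) and the bundling genes Prc1 (-4.07) and Nusap1 (-4.37, and -1.96 on another probe) fell, and the tubulin genes Tuba1a (0.66) and Tubb4b (0.40) rose, with Tuba1b (0.13), Mapre1 (0.09) and Ckap5 (0.16) not passing. Of the condensation list 17 of 21 fell. The condensin subunits Ncaph (-3.77) and Ncapd2 (-3.26, and -2.64 to -1.97 on other probes) and the cohesin acetylase gene Esco2 (-4.12) fell by more log2 units than the cohesin ring subunits Smc1a (-1.14), Smc3 (-0.46) and Rad21 (-0.77), which interphase cells also need.

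**Figure D4:**
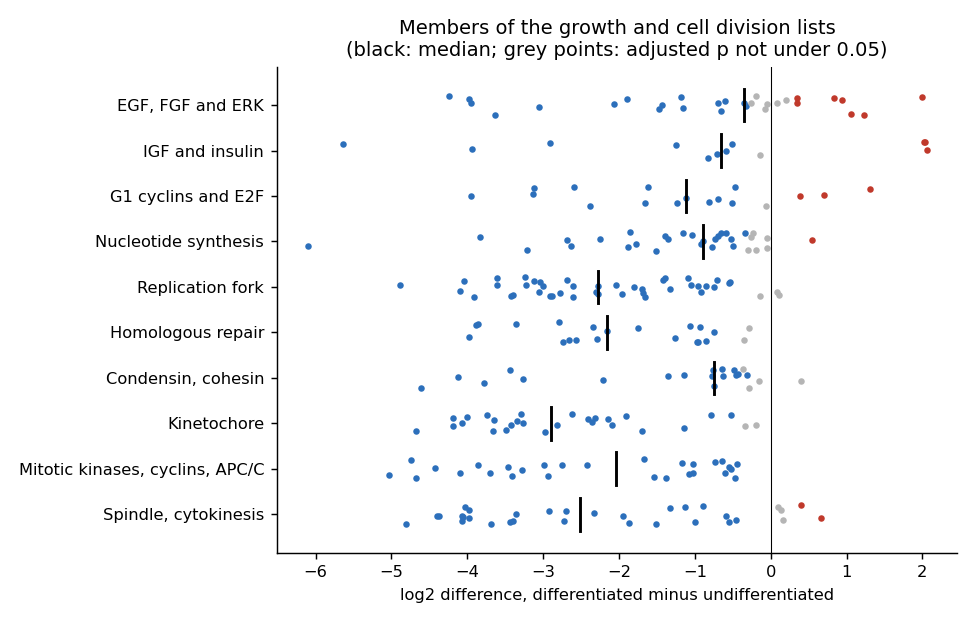
Log2 difference (differentiated minus undifferentiated) of every measured member of 10 lists of growth signalling and cell division, one point per gene, blue if it fell, red if it rose and grey if it did not pass; the black line is the list's median. The kinetochore list has the lowest median, -2.89, and the growth factor list the one nearest 0, -0.35.

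The promoters of these genes carried words that cell cycle factors are known to read. As background, NF-Y binds the CCAAT box, the DREAM, B-MYB and FOXM1 complexes reach late cell cycle genes through the CHR word TTTGAA, and E2F factors bind words such as TTTGGCGC. Promoter windows of 300 bases, from 250 before to 50 after the start, came from RefSeq on GRCm38.p6 and were found for 7126 of the 9404 genes and 126 of the 153 cell division genes. Windows were searched on both strands for CCAAT, for TTTGAA and for the E2F words TTTGGCGC, TTTCCCGC, TTTGCCGC and TTTCGCGC, and a base can belong to matches of more than 1 word. The windows of the 4 most reduced division genes with a single listed start are shown so that the words can be seen in place, with all matches in capitals, the minus-strand matches included.
Cdk1, chr10:69352863-69353162, minus strand: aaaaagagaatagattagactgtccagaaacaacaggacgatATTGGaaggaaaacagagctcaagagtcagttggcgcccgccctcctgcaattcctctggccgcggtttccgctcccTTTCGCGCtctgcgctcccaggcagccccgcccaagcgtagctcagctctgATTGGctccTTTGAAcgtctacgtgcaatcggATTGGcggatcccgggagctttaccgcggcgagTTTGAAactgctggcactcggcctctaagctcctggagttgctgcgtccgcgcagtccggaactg
Cenpa, chr5:30666636-30666935, plus strand: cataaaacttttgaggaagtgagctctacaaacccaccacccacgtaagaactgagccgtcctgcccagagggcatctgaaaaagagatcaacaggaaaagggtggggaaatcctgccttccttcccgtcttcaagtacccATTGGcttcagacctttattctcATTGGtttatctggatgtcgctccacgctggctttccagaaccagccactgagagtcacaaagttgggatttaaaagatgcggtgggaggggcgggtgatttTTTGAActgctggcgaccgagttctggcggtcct
Cdca3, chr6:124829926-124830225, plus strand: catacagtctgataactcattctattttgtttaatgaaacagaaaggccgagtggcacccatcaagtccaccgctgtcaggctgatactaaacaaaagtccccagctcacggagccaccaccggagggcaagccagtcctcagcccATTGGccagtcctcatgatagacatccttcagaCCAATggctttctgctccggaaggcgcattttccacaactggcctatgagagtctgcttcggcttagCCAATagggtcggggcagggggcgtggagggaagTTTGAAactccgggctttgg
Pclaf, chr9:65890073-65890372, plus strand: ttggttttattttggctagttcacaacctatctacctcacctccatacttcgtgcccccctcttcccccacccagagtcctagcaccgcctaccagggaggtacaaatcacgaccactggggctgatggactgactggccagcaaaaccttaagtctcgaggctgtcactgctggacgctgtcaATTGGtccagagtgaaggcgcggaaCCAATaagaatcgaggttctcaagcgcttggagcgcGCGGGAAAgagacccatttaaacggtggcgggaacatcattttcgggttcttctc
The Cdk1 window held 3 matches to CCAAT, 2 to TTTGAA and 1 to an E2F word. The Cenpa and Cdca3 windows held 2 and 3 matches to CCAAT and 1 each to TTTGAA, and Pclaf, a partner of the replication clamp, held 2 to CCAAT and 1 to an E2F word.

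The share of windows with each word is given by list as a description, and no difference between lists was tested. TTTGAA lay in 65.5% of the windows of spindle genes, 44.0% of those of mitotic kinases and cyclins, 43.8% of condensation windows and 38.5% of kinetochore windows, against 17.02% at the replication fork and 11.6% over all genes tested. E2F words lay in 29.8% of replication fork windows, 4 of 16 condensation windows, 19.2% of kinetochore windows, 10.3% of spindle windows and 2 of 25 of those of mitotic kinases and cyclins, and in 3.89% over all genes tested. CCAAT was found in 62.1% of spindle, 61.5% of kinetochore and 60% of mitotic kinase and cyclin windows. It lay in 44.7% of replication fork and 37.5% of condensation windows, against 38.2% over all genes tested. Among all genes that fell, TTTGAA stood at 14.5% and the E2F words at 6.03%, against 9.72% and 2.72% among those that rose. Over all promoters of the table, whether tested or not, the shares were 17.9% for TTTGAA and 2.27% for the E2F words. A match is a description of the letters and not evidence of binding.

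**Figure D5:**
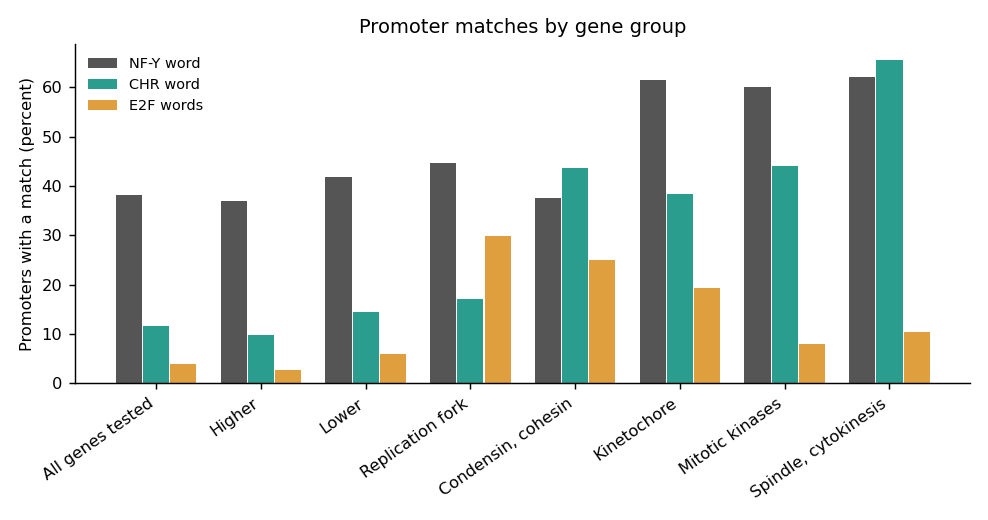
Percent of promoter windows with a match to the CCAAT box (the NF-Y word, grey), to the CHR word (green) or to any of 4 E2F words (orange), for all genes tested, for genes higher or lower in differentiated cells and for 5 cell division lists. The CHR word is most frequent in spindle windows, at 65.5%, and the E2F words in replication fork windows, at 29.8%.

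The same search covered TTCNNNGAA, the palindrome read by STAT factors, which carry the cytokine signal that induces Gfap in astrocytes. It lay in 7 of 38 astrocyte marker windows (18.4%), 7.08% of the windows of all genes that rose and 6.69% of all genes tested. The share was 8.30% over all promoters, 7.69% over the cell division lists and 18.8% in condensation windows alone (3 of 16). No difference between these shares was tested. The Gfap window holds 1 match, in capitals, at its start site.
Gfap, chr11:102897151-102897450, minus strand: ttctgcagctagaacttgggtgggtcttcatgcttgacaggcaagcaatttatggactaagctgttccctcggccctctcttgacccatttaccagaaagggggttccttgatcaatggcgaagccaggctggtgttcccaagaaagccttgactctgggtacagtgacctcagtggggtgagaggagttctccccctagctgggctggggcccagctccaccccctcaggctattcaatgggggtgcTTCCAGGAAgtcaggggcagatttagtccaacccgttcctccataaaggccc

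Enzymes that feed DNA synthesis fell as well. Of 31 nucleotide synthesis genes 24 fell and 1 rose, or 2 rose when all kept probes were tested. Tyms, thymidylate synthase, had log2 levels of 10.32, 10.39 and 10.45 on the undifferentiated arrays and 7.27, 7.27 and 6.97 on the differentiated arrays. It fell by 3.22 ± 0.11 (-2.76 to -0.57 on other probes) without overlap. The ribonucleotide reductase subunits Rrm2 (-3.84) and Rrm1 (-2.69) fell, but Rrm2b (-0.04), the subunit that serves resting cells, did not pass. The enzymes of deoxynucleotides Dctd (-1.88), Dut (-1.78) and Dtymk (-1.40) fell by more log2 units than those of the common purine path, Gart (-0.34), Paics (-0.66) and Atic (-0.78). The purine salvage genes moved apart, with Hprt (-1.86) lower and Aprt (0.55) higher. In homologous repair 19 of 21 fell, led by Clspn (-3.88, and -3.77 to -1.24 on other probes), Rad54b (-3.86) and Fancd2 (at least 9.27-fold lower), while Mus81 (-0.36) and Fancg (-0.29) did not pass.

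Genes of the nuclear lamina and of chromatin proteins changed in both directions. Lmnb1, the B-type lamin, had log2 levels of 11.80, 11.79 and 11.73 on the undifferentiated arrays and 9.56, 9.56 and 9.55 on the differentiated arrays, and Lmna, which encodes the A-type lamins of differentiated cells, had levels of 6.66, 6.86 and 6.94 on the undifferentiated arrays and 8.38, 8.52 and 8.67 on the differentiated arrays. Neither overlapped, and they moved in opposite directions, by -2.21 ± 0.09 (-0.95 on another probe) (adjusted p = 7.14e-08) and 1.70 ± 0.12 (adjusted p = 2.48e-06) on the log2 scale. The lamin B receptor gene Lbr (-1.75) fell as well. Dnmt1 (-1.99) and Uhrf1 (-3.98), which copy DNA methylation after replication, and the Polycomb genes Ezh2 (-1.15), Suz12 (-0.85) and Eed (-0.71) fell, while Ezh1 (at least 1.07-fold higher), the Polycomb enzyme of resting cells, rose. Hmgb2 (-3.54), H2az1 (-1.79) and H2ax (-2.19) were lower too, so that 17 of 25 fell and 4 rose.

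Signalling genes with a part in gliogenesis moved in both directions. In the JAK-STAT list 7 of 18 rose and 3 fell, but 1 fell with median scaling and 5 without undifferentiated replicate 1. The receptor chains Il6st (2.17) and Osmr (1.64) and the feedback inhibitors Socs3, Socs2 (3.39) and Cish (1.58) rose, with Socs3 at log2 levels of 5.08, 4.82 and 5.17 on the undifferentiated arrays and 8.38, 8.48 and 8.38 on the differentiated arrays and no overlap, whereas the LIF receptor gene Lifr (-1.12) fell and Stat3 (0.71) did not pass. BMP and TGF-beta genes numbered 11 up and 10 down in 30, and the Id genes, which BMPs induce, split: Id4 (3.04) and Id2 (0.56) rose and Id1 (-0.78) and Id3 (-1.34) fell, as log2 differences. Of 23 Notch genes 11 rose and 5 fell. Among them Hey1 (1.35) and Nrarp (0.79) rose and Hes1 (-0.44) and Hes6 (-1.51) fell, while Hes5 (-0.56) did not pass. The falls numbered 3 with median scaling. In the Wnt list 8 rose and 11 fell in 31. Axin2, the feedback gene that beta-catenin induces in most tissues, had log2 levels of 9.48, 9.40 and 9.25 on the undifferentiated arrays and 8.03, 7.92 and 7.97 on the differentiated arrays. It fell by 1.40 ± 0.10 without overlap (adjusted p = 3.18e-06), along with Lgr5 (-1.12), Kremen1 (-1.67) and Ror2 (-1.24), and the ligand gene Wnt5b (3.29) and the inhibitor gene Apcdd1 (1.51) rose. These counts are near the shares over all genes in the BMP and Wnt lists.

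Genes of the extracellular matrix went both ways. Of 31 collagen and basement membrane genes 15 rose and 8 fell. Nid1, the nidogen that links laminin to collagen IV, had log2 levels of 4.87, 5.03 and 4.47 on the undifferentiated arrays and 8.01, 8.03 and 8.05 on the differentiated arrays. Fbln2, a fibulin, had levels of 11.47, 11.68 and 11.50 on the undifferentiated arrays and 4.93, 4.96 and 5.05 on the differentiated arrays. Neither overlapped, with log2 differences of 3.24 ± 0.14 and -6.57 ± 0.10 (-3.35 on another probe). The chains of collagen IV split, with Col4a5 (2.93) higher and Col4a1 (-1.62) and Col4a2 (-0.61) lower, and Col6a1 (3.10) and Lamb2 (1.11) rose while Hspg2 (-1.20) and Col18a1 (-2.08) fell. Tenascin C, Tnc (-2.73 ± 0.12, and -2.85 to -0.64 on other probes), fell and the hyaluronan receptor gene Cd44 (1.03) rose. Among sheddases the genes Adam12 (-3.33) and Adam19 (-3.31) fell. Integrin and adhesion genes numbered 14 up and 10 down in 33, with Itga7 (3.20) and Itgb5 (2.05) higher and Cdh4 (-1.56) and Cdh20 (-1.31) lower; the falls numbered 5 with median scaling or without undifferentiated replicate 2 and 6 without undifferentiated replicate 3, without background correction or in the authors' normalized table. Axon guidance genes were even, 12 up and 12 down in 37, from Ephb1 (2.30) to Ntn4 (-2.04).

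Markers of oligodendrocytes and of young neurons moved for the most part with the astrocyte genes. Of 21 measured neural progenitor genes 6 rose and 10 fell, with a median log2 difference of -0.43. The levels of markers of other cell types were recorded beside the results above, and their part in these results was not tested. Of 14 measured myelin and oligodendrocyte genes 10 rose and 2 fell, and their summed linear signal was 3545 to 4489 on the undifferentiated arrays and 7430 to 9742 on the differentiated arrays. All 14 were detected on every differentiated array and 9 on every undifferentiated array. Some thus passed the filter only through the group where they were high, and the count of rises is no support beyond the genes measured. Mbp, myelin basic protein, had log2 levels of 4.88, 4.49 and 5.17 on the undifferentiated arrays and 10.03, 9.30 and 9.62 on the differentiated arrays. The groups did not overlap, with a difference of 4.803 ± 0.21 (1.20 on another probe). Enpp6 (at least 13.1-fold higher), expressed as oligodendrocytes begin to differentiate, and the myelin lipid enzymes Fa2h (at least 12.6-fold higher) and Gal3st1 (3.39) rose with it, and Mag (at least 1.20-fold higher) was detected on differentiated arrays only. The lineage factor genes did not rise: Olig1 (-0.11) did not pass and Olig2 (-0.83) fell. Of 14 progenitor genes of that lineage 8 rose, such as Pdgfra (1.62), and 2 fell, and the summed signal was 18360 to 19360 before and 28000 to 30420 after. The log2 differences of this list ran from -1.35 to 5.28, and its highest, that of Lims2, was among the 40 largest rises of all genes.

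Of 19 measured neuronal genes 13 rose and 3 fell, with a summed signal of 6998 to 7815 before and 11260 to 12320 after. Dcx, a microtubule protein of young neurons, had log2 levels of 5.79, 5.71 and 5.63 on the undifferentiated arrays and 9.29, 9.06 and 9.06 on the differentiated arrays. It was higher on every differentiated array, and the tau gene Mapt (2.39, and 0.08 to 1.46 on other probes) and the collapsin response genes Dpysl3 (2.87) and Dpysl5 (2.38) rose too. Map2 (0.10) did not pass and Gap43 (-1.29), a protein of growing axons, fell. Synaptic genes had 12 rises and 7 falls in 22, with Gria2 (1.38) higher and Syt1 (-0.98) lower. Ciliary genes of ependymal cells were measured in 4 of 20 cases on the array, and 3 rose, Foxj1 (0.72), Rsph1 (at least 1.96-fold higher) and Ccdc39 (at least 1.24-fold higher). Rsph1 and Ccdc39 were detected on differentiated arrays only and passed the filter through that group. With any 1 differentiated array left out these 2 genes were no longer tested, and 1 gene rose. Of 17 microglial genes on the array 1 was detected often enough to test, Sall1 (-0.09), which neural progenitors also express, and of 21 endothelial and pericyte genes 2 were. The pluripotency gene Dppa5a had log2 levels of 5.06, 8.78 and 6.16 on the undifferentiated arrays and 7.40, 4.82 and 4.78 on the differentiated arrays, which overlapped between groups, and Nanog (0.11) did not pass.

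Inflammatory genes rose in most cases. In the NF-kB list 10 of 13 rose and 1 fell, among them the inhibitor genes Nfkbia (0.51) and Nfkbie (0.44) and Tlr2 (0.88). Complement C4, C4b (3.28 ± 0.13), and Cd59a (at least 10.6-fold higher), which blocks the membrane attack complex, rose, and C2 (-1.88) fell. Interferon-response genes had 8 rises and 2 falls in 18. The rises numbered 5 without differentiated replicate 1 and 4 without differentiated replicate 2 or 3. In these settings a gene detected only on the differentiated arrays could drop out untested. The falls numbered 1 in 9 of the 15 alternatives, among them leaving out undifferentiated replicate 1 or 3 or differentiated replicate 2 or 3. Antigen presentation genes numbered 3 up and 3 down in 10, or 2 up and 1 down with median scaling, with Tapbp (1.37) higher and B2m (-0.33) and Psmb10 (-0.50) lower. Of 18 clock genes 8 rose and 4 fell. Those that rose include Per1 (0.88), Rora (1.03) and Clock (0.69), and those that fell were Timeless (-3.61), which also acts at replication forks, Per2 (-1.31), Ciart (-1.08) and the kinase gene Csnk1d (-0.98, and -1.26 to 0.59 on other probes).

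Lists of protein synthesis, respiration and lipid synthesis had more falls than rises. Cytosolic ribosomal protein genes fell in 24 of 45 cases and rose in 1, or in none with median scaling, with a median log2 difference of -0.26. Respiratory chain genes fell in 17 of 64 and rose in 3, or in 1 with median scaling, with a median of -0.17. Their share of falls, 26.6%, was close to the 27.2% over all genes, and 44 of the 64 did not pass. The falls numbered 7 with median scaling, 10 without undifferentiated replicate 2, 11 without differentiated replicate 1 and 10 without differentiated replicate 3. Sterol and fatty acid synthesis genes had 7 rises and 11 falls in 32, and 4 rises with median scaling. The desaturase gene Fads2 (1.68) rose and Elovl6 (-0.89), Fdps (-0.82) and Lss (-0.82) fell, while Hmgcs1 (0.20) and Fasn (0.05) did not pass.

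In both groups Dgcr8 was detected, with log2 levels of 7.26, 7.44 and 7.23 on the undifferentiated arrays and 6.93, 7.11 and 7.30 on the differentiated arrays. The difference of -0.20 ± 0.12 did not pass (adjusted p = 0.195). Its position relative to the conditional deletion is not given for the probe. Of 21 genes of microRNA processing and silencing 4 rose and 6 fell, but 1 rose with median scaling and 2 without undifferentiated replicate 2 or 3 or differentiated replicate 2. Of the same list Drosha (-0.07), Dicer1 (-0.18) and Ago2 (-0.25) did not pass. The known let-7 targets had 5 rises and 14 falls in 26 and a median log2 difference of -0.37, and the known miR-125 targets 5 rises and 11 falls in 25 and a median of -0.18. With median scaling 1 let-7 target rose, and 3 did without undifferentiated replicate 3 or differentiated replicate 1. Some let-7 targets are also cell cycle or growth factor genes described above, such as Ccnd1, Rrm2 and Dusp6. Those that are not include Nras (0.42), Fign (-1.14), Igf2bp3 (-1.25) and Map4k4 (-1.59), whose log2 differences go both ways.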

How the data were processed

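RNA of 6 samples was measured on Illumina mouse bead arrays, which read each transcript with 1 or more probes. The authors deposited a non-normalized intensity and a detection p-value per probe and array, per the file headers. The submitters' processing notes name limma without a version or role. The deposited intensity values were background-corrected and quantile-normalized with neqc (offset 16) in limma 3.58.1 under R 4.3.3. Of 25697 probes 23978 carry a gene symbol, 1719 carry none, and 23962 were matched by gene ID to RefSeq names of GRCm38.p6. Probes with a detection p-value under 0.05 on at least 3 of 6 arrays were kept, and the probe with the highest mean stood for its gene. Differences were tested with lmFit and eBayes and adjusted over all 9404 genes by the Benjamini-Hochberg method. A bound sets the mean of the detected group against the lowest detected signal of the other, or the probe's own level where that was higher.

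Named genes were drawn from the 40 largest rises and 40 largest falls without overlap and the 5 largest changes per list in each direction. List members whose role is described, the 3 astrocyte markers and some of the 15 highest levels per group were also named. Not every gene of these groups is described. Those left out include Ly6h, Gbp2 and Gpr17 among the largest rises and Tk1, Dcpp1 and Pbk among the largest falls. The members and all 73 lists were chosen with earlier results of these data known. On simulated data with these 9404 genes, 100 of 100 genes changed by 1 log2 unit and 100 of 100 changed by 2 were recovered, and 15 genes that had not been changed were called in the same simulation. The number of arrays limits the precision. Columns of 13 other arrays were not used. The deposited normalized table numbers undifferentiated replicates 1 and 3 the other way round, and numbers follow the non-normalized one here. Alternatives covered background, normalization, filter, probe choice, array weights, the replicate block and leaving out each array.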

Additional observations from a re-analysis of the deposited data

How the results depend on the processing

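The counts of 2631 genes higher and 2562 lower in differentiated cells stayed within 1.5 times under 15 alternatives, the weakest being normexp with median scaling (1956 and 1884). With a fold of at least 1.5 also required, 1679 were higher and 1430 lower. Leaving out 1 array gave 2125 to 2633 higher and 2132 to 2438 lower. The filter on dim probes was repeated each time. A gene detected only on the 3 arrays of 1 group was thus not tested when any of them was left out. Same-numbered arrays of the 2 groups had deviation correlations of -0.007, 0.18 and -0.073, and differently numbered arrays had -0.129 to 0.129. With 3 arrays per group these values cannot show whether the numbers pair the samples. A fit with the replicate block gave 2620 higher and 2552 lower. Of 369 named genes, tested under these alternatives in 5466 gene and setting pairs, none reversed, 70 pairs lost the call and 44 gained it. Of the 327 named genes that passed, 304 kept the call in each alternative that measured them. Median scaling took the call from 18 named genes, the most of any setting. Of 2190 counts of list members by setting 91 moved by over 1.5 times, and the moves of counts printed above are given with them. Detected probes lay 2.33 to 3.15 times above background, which limits the precision for dim genes.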

Other observations

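Replication-dependent histone genes, chosen after their values were seen, did not move as 1 group. Of 13 measured H2A genes of this kind 11 were lower in differentiated cells, 1 was higher and 1 did not pass, with a median log2 difference of -3.49; H2ac12 (-4.30), H2ac22 (-4.28) and H2ac15 (-4.12) were among the 40 largest falls of all genes. Of 10 measured H2B genes 8 were higher, none was lower and 2 did not pass, with a median log2 difference of 0.90 and a range of -0.22 to 1.12. The 7 H3 and 7 H4 genes measured had medians of -0.21 and -0.11. The genes of each family are near-identical copies, so probes may share signal and the number of genes that moved is uncertain.

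Detection calls can be counted without a fold change. Detection on all 3 differentiated arrays and on no undifferentiated array was seen for 273 genes, and the reverse for 120 genes. Other genes among the 40 largest rises include Glycam1 (at least 158-fold higher), the sorting receptor gene Sorl1 (4.66) and the secreted ribonuclease gene Rnase1 (4.55). They also include Padi2 (at least 14.7-fold higher, and 0.36 on another probe), which converts arginine to citrulline in proteins. The retinol dehydrogenase gene Rdh5 (3.95) and Ndrg2 (4.11), a gene expressed in astrocytes, were among them too. Those among the 40 largest falls include Rassf3 (-4.04), the spindle gene Knstrn (-4.57, and -2.47 on another probe) and Gtse1 (-4.09), also as log2 differences. Ckb, brain creatine kinase, had log2 levels of 14.34, 14.34 and 14.34 on the undifferentiated arrays and 14.22, 14.20 and 14.34 on the differentiated arrays and overlapped between groups.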
